A study of Mus musculus with 12 samples.

Results

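Wild type mouse mammary glands were compared between 24 h and 8 h of progesterone, 3 arrays against 3, which are 6 of the 12 arrays in the series. The mice were ovariectomized BALB/c females, 10 weeks old. All were treated subcutaneously with 17β-estradiol (100 ng) for 24 h, and 17β-estradiol (100 ng) was then combined with progesterone (2.5 ug) for 8 or 24 h. Each array held total RNA from a pool of 3 mice, hybridised as biotin-labelled cRNA to an Affymetrix expression array. The other 6 arrays, 3 at each time, came from progesterone receptor null mice of the same strain, age, sex and treatment (null, from here on), and are used here for the same step in time without the receptor. The labels do not describe the null allele. No group went without progesterone and none without 17β-estradiol. The 24 h pools had also received 17β-estradiol for longer, and the hour of collection is not given, so time, hormone exposure and hour of day cannot be told apart.

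Ovarian progesterone acts in the mammary gland through its receptor, a hormone-activated transcription factor made by a subset of luminal epithelial cells. Estradiol, through the estrogen receptor, induces that receptor. The receptor-positive cells respond by making secreted signals, among them RANKL (encoded by Tnfsf11) and WNT4, which act on neighbouring receptor-negative luminal and basal cells. Those neighbours answer with R-spondin 1, with proliferation and with side branching, and prolactin signalling through STAT5 later drives milk protein and milk fat genes.

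At 24 h compared with 8 h, the genes for RANKL, R-spondin 1, β-defensin 1, surfactant protein D and the antibody joining chain were higher. The genes for the progesterone receptor, the oxytocin receptor, the collagen lysyl hydroxylase PLOD2, STAT5A and the milk fat protein butyrophilin were lower, as was the estrogen-responsive gene Greb1. Values are the deposited log2 signals, and a difference of 1 on this scale is a 2-fold change. A gene was represented by its brightest tested probe set and was called at an adjusted p below 0.05 in limma, adjusted over all probe sets tested. Of 12004 genes, 174 (1.45%) were called higher and 460 (3.83%) lower at 24 h. Among probe sets the shares were 1.53% (363 of 23709) and 3.69% (875). The median fold of the called genes was 1.43 for those higher and 1.41 for those lower. Of the called genes, 22 were over 2-fold higher and 48 over 2-fold lower, and 5 in each direction passed 4-fold. The arrays of the 6 pools did not overlap for any called gene, and they did not overlap for 26.2% of all genes tested.

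Of the genes called higher, 24 lay under the array medians (5.84 to 5.91) on all 3 arrays at 8 h, 12 of them over 2-fold higher, and 11 called lower did so at 24 h. Such values are close to background, so the size of these folds is uncertain. Tnfsf11, Rspo1 and Sftpd were above the medians on the 3 wild type 24 h arrays alone, and so entered the test only through the group where they are high.

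Many calls depended on single wild type pools, most of all on 8 h pool 1. Of the 12 fits that each left out 1 pool of the series, all kept the calls of 18 higher and 93 lower genes. Without wild type 8 h pool 1, 156 of the 174 higher and 361 of the 460 lower genes lost their calls. Other wild type pools mattered as well. Of 102 called genes named here, 33, 57 and 63 kept their calls without 8 h pool 1, 2 or 3. Without 24 h pool 1, 2 or 3, 76, 62 and 69 did. The pools at 24 h varied more than those at 8 h: the median SD of a gene was 0.144 (log2, n = 3) at 24 h and 0.104 at 8 h. Correlations over the tested probe sets ran from 0.974 to 0.993 between arrays of the same time and from 0.967 to 0.979 between the times. Below, a call is said to be kept when it passed in all 12 of these fits, and the pools whose removal ended it are otherwise given.

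Some cell type markers differed widely between pools of the same time. The 19 tested T and B lymphocyte markers, as a mean relative to each gene's wild type average, lay at 0.21, 0.04 and -1.39 (log2) in the 8 h pools and at 0.72, -0.58 and 1 in the 24 h pools. Wild type 8 h pool 3 was thus low and 24 h pool 2 was below 8 h pools 1 and 2, so the times overlap. The 19 skeletal muscle markers spanned -1.14 to 1.37 and 4 skin keratinocyte markers -1.96 to 2.67, also with overlapping times. The white adipocyte marker Adipoq, the adiponectin gene, lay between 13.96 and 14.26 in all 6 pools, and the luminal keratin gene Krt18 between 10.5 and 11. The mean of the 20 epithelial markers that include Krt18 ran from -0.18 to 0.25, and 4 of them were called higher and 1 lower at 24 h. In whole tissue, fewer cells of a type and less RNA per cell cannot be told apart.

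**Figure D1:**
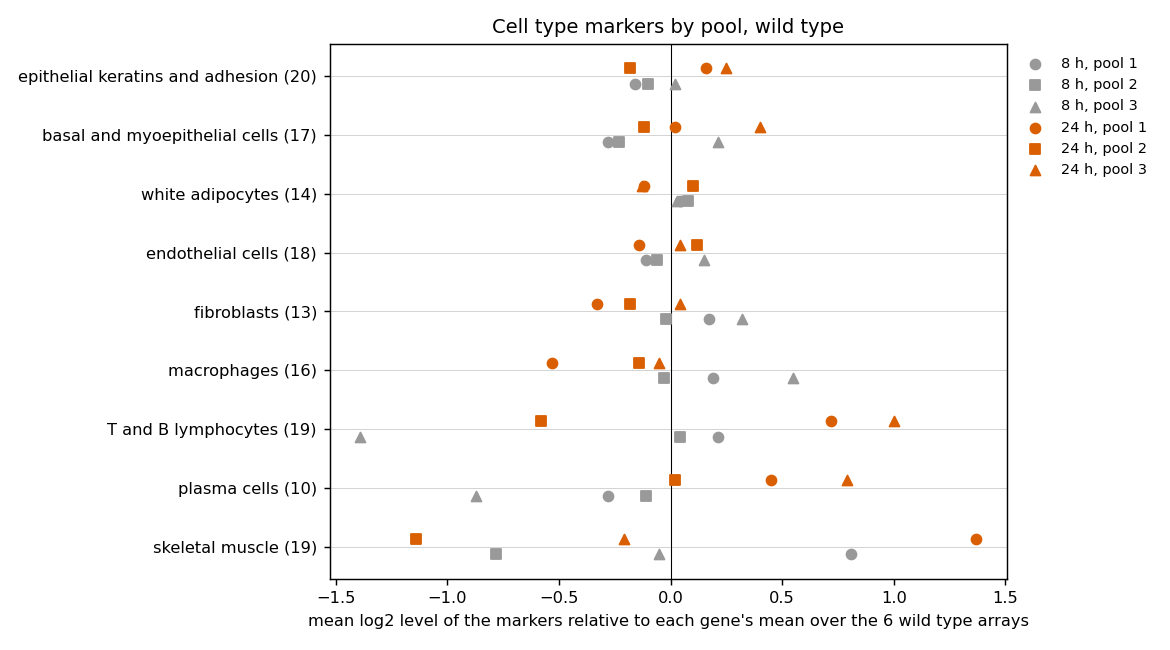
Mean log2 level of cell type markers in each wild type pool, relative to each gene's mean over the 6 wild type arrays (x axis); each row is a marker list with its number of tested genes, grey symbols are the 8 h pools, orange symbols the 24 h pools, and the symbol shape is the pool number. The lymphocyte row runs from -1.39 to 1 and the skeletal muscle row from -1.14 to 1.37, and white adipocyte markers stay near 0.

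The progesterone receptor gene itself fell. Pgr lay at 10.01, 9.89 and 9.94 (log2) in the 8 h pools and at 7.84, 7.52 and 8.1 in the 24 h pools. All 24 h pools were far below all 8 h pools, a 4.36-fold difference (24 h minus 8 h -2.12, SE 0.19, limma adjusted p = 0.00038), and the call was kept. A dimmer probe set of Pgr lay at 4.97, 4.62 and 5.02 at 8 h and at 4.36, 4.01 and 4.47 at 24 h, under the array medians throughout, and was not called (-0.59, adjusted p = 0.052). It entered the test only through the 6 null arrays, where it was higher, at 6.24 to 6.93, unlike the brighter probe set. A further probe set was too dim to be tested. In null glands the brighter probe set lay at 9.07, 8.56 and 9.04 at 8 h and at 7.86, 7.33 and 7.2 at 24 h. Signal was thus present in glands labelled null, and since the labels do not say which part of the gene the allele removes, these probe sets do not check that label. Over time it fell there too, by 1.42 on the log2 scale (adjusted p = 0.0031), and a difference between the genotypes in this change was not called (interaction -0.7, adjusted p = 0.75, unadjusted 95% interval -1.3 to -0.1).

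Around the receptor, Foxa1, a pioneer factor that opens chromatin for estrogen receptor α, rose from 9.3 ± 0.07 (SD, n = 3) to 10.12 ± 0.21, or 1.77-fold. Nr3c1, the glucocorticoid receptor, fell 1.29-fold. Without wild type 8 h pool 1 neither was called (adjusted p = 0.058 and 0.061). The estrogen receptor α gene Esr1 lay at 10.86 ± 0.1 and 10.74 ± 0.19 (adjusted p = 0.63), a difference between -0.37 and 0.14 by its 95% interval. These were 1 higher (6.67%) and 2 lower (13.3%) among 15 tested receptors, co-regulators and chaperones. Of all genes 1.45% were higher and 3.83% lower. The median of the 15 was -0.07 beside -0.009 over all genes. The other 12 were not called, and they include the chaperone Fkbp5 and the coactivators Ncoa1, Ncoa2 and Ncoa3.

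Of 17 tested estrogen-responsive genes, 6 fell and 1 rose, which is 35.3% lower against the background of 3.83%. The list includes Pgr, and some of its genes were known from earlier results of these data to change. Greb1, whose product is a cofactor of estrogen receptor α, lay at 7.98, 7.84 and 8.32 at 8 h and at 6.26, 5.58 and 6.93 at 24 h. The groups were apart by more than their own spread (3.46-fold lower, SE 0.3, limma adjusted p = 0.01), and the call was kept. Stc2, which encodes the secreted glycoprotein stanniocalcin 2 (2.24-fold), the transcription factor gene Myb (2.07-fold), Igfbp4, which encodes a binder of insulin-like growth factors (1.41-fold), and Ctsd, the protease cathepsin D (1.25-fold), also fell. Without wild type 8 h pool 1 these 4 genes were not called (adjusted p 0.073 to 0.1). Stc2 was also lost without 8 h pool 2 or 3, Igfbp4 without 8 h pool 2, and Ctsd without 8 h pool 2 or 24 h pool 2 or 3. The riser was Cyp1b1, a cytochrome P450 that hydroxylates estradiol (2.36-fold), whose call was lost without any of 4 wild type pools (adjusted p up to 0.13). Over the list the median difference was -0.21 in wild type and -0.47 in null glands.

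Of the enzymes that make or break down steroids, 2 of 13 fell (15.4% against 3.83% of all genes) and none rose. Akr1c14, which encodes a 3α-hydroxysteroid dehydrogenase that reduces progesterone metabolites, lay at 10.92, 10.74 and 11.26 at 8 h and at 8.67, 8.65 and 9.28 at 24 h. This 4.3-fold fall (SE 0.22, limma adjusted p = 0.00083) was kept. Akr1c18, the 20α-hydroxysteroid dehydrogenase that inactivates progesterone, fell 2.44-fold and lost its call without wild type 8 h pool 1 (adjusted p = 0.089). A related aldo-keto reductase gene, Akr1cl, was 3.02-fold lower, with 24 h pools from 5.13 to 6.75 and 8 h pools from 7.07 to 8.12. Its call was lost without 8 h pool 1 or 3 or 24 h pool 1 or 2 (adjusted p up to 0.087). Aldo-keto reductase genes are close copies of each other, so probe sets may read more than 1 of them.

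The promoter windows of Tnfsf11, Pgr, Greb1 and Oxtr are shown as genes called over time from the paracrine, receptor, estrogen-responsive and oxytocin lists. They are RefSeq windows of GRCm38.p6, from 250 bases before to 50 after the start of the gene, 5′ to 3′ on the strand of the gene. They lie at chr14:78307994-78308293 (minus strand), chr9:8899583-8899882 (plus), chr12:16800837-16801136 (minus) and chr6:112489776-112490075 (minus). Capitals mark matches, on either strand, to CACGTG (E-box), AGGTCA (core of the estrogen response element), AGAACA (core of the progesterone and glucocorticoid response element), TGACGTCA (cAMP response element) and CCAAT.
Tnfsf11: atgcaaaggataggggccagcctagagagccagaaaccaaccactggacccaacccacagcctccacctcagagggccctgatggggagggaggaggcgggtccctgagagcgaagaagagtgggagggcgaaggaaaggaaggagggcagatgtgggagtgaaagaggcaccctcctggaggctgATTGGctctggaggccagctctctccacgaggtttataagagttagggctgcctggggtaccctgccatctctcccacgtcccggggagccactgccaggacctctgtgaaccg
Pgr: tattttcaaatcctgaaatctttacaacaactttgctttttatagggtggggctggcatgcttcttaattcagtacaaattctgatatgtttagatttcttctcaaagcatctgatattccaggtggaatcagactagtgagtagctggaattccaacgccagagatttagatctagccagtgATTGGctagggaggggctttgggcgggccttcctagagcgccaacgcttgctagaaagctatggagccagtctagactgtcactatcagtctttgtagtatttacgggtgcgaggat
Greb1: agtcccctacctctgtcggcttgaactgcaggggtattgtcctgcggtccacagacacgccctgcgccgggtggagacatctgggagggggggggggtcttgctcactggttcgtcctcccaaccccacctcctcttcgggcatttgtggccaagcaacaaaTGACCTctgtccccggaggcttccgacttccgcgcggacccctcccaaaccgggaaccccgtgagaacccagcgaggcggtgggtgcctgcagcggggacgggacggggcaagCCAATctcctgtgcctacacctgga
Oxtr: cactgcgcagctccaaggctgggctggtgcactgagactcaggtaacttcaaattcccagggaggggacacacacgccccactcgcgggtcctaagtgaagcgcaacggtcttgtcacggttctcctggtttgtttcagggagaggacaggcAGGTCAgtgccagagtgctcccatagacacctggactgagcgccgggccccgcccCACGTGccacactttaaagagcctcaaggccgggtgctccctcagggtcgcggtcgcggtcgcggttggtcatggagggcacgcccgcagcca

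In these letters the Tnfsf11 window held 1 inverted CCAAT box that starts 64 bases before the gene, and the Pgr window 1 that starts 67 before it. Greb1 held an inverted AGGTCA starting 88 bases upstream and a CCAAT box after the start, and Oxtr held an AGGTCA starting 98 and an E-box starting 43 bases upstream. The motifs are common: among all 27025 genes with a window, 16% hold AGGTCA, 37.9% CCAAT, 19.0% AGAACA, 7.24% CACGTG and 1.88% TGACGTCA. Of the genes lower at 24 h that had a window (371 of 460), 13.2% held AGGTCA, as did 12.2% of the tested genes. Of those higher (130 of 174), 16.2% did. AGAACA was in 10.8% of the higher and 9.43% of the lower genes against 12.3% of those tested, and CACGTG in 7.69% and 13.2% against 10.2%. A match is only a run of letters in this window.

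Among secreted signals of the progesterone response, Tnfsf11 changed most. It lay at 4.23, 5.23 and 4.13 in the 8 h pools, below the array medians, and at 7.79, 6.41 and 7.76 in the 24 h pools. The lowest 24 h pool was above the highest 8 h pool, and the rise was 6.93-fold (SE 0.52, limma adjusted p = 0.014, lost without wild type 8 h pool 1 at 0.071). Tnfsf11 entered the test only through the wild type 24 h arrays. Its receptor gene Tnfrsf11a, which encodes RANK, lay at 6.04 ± 0.03 and 6.03 ± 0.02 (n = 3 each), a difference between -0.21 and 0.19. Wnt4 lay at 8, 8.1 and 7.84 at 8 h and at 8.92, 8.38 and 8.38 at 24 h, without overlap but not called (1.49-fold, adjusted p = 0.1).

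Rspo1, which encodes R-spondin 1, an amplifier of WNT signals, lay at 5.18, 5.26 and 5.28 at 8 h and at 6.55, 5.94 and 6.56 at 24 h. All 24 h pools were higher (2.16-fold, SE 0.16, limma adjusted p = 0.0053), and the call was kept. The 8 h pools were under the array medians, and Rspo1 entered the test only through the wild type 24 h arrays. The size of its rise is thus uncertain. The R-spondin receptor gene Lgr4 rose 1.3-fold but lost its call in 11 of the 12 fits without 1 pool (adjusted p up to 0.19, without wild type 8 h pool 1). Another, Lgr5, lay 0.63 higher without a call (adjusted p = 0.054). Id4, an inhibitor of basic helix-loop-helix factors made mostly by basal cells, rose 2.06-fold, from 7.84, 8.12 and 8.5 to 9.21, 8.88 and 9.49, and was lost only without wild type 8 h pool 1 (adjusted p = 0.05 after rounding). Cebpb, a transcription factor needed for alveolar development, fell 1.54-fold and was kept.

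Of 21 tested genes of this paracrine response, 4 rose (19.0% against 1.45%) and 2 fell (9.52% against 3.83%), and their median was -0.08. The list was drawn up knowing that Tnfsf11, Rspo1 and Id4 were higher, and Tnfsf11 and Rspo1 entered the test only through the wild type 24 h arrays. The count of this list is therefore no independent evidence. The cell cycle gene Ccnd1 lay 1.43-fold higher (adjusted p = 0.056) and the alveolar regulator gene Elf5 1.44-fold lower (adjusted p = 0.18), both without a call. In the wider WNT list 2 of 34 rose (5.88%) and 1 fell (2.94%). The last was Sfrp4, a secreted WNT antagonist (2.22-fold, lost without wild type 8 h pool 1, limma adjusted p = 0.066). Btc, betacellulin of the EGF family, rose 1.64-fold and was lost without 5 wild type pools (adjusted p up to 0.13). Notch2 and its ligand gene Jag1 rose 1.32-fold and 1.24-fold, each lost without 4 or 5 pools (up to 0.12 and 0.13).

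**Figure D2:**
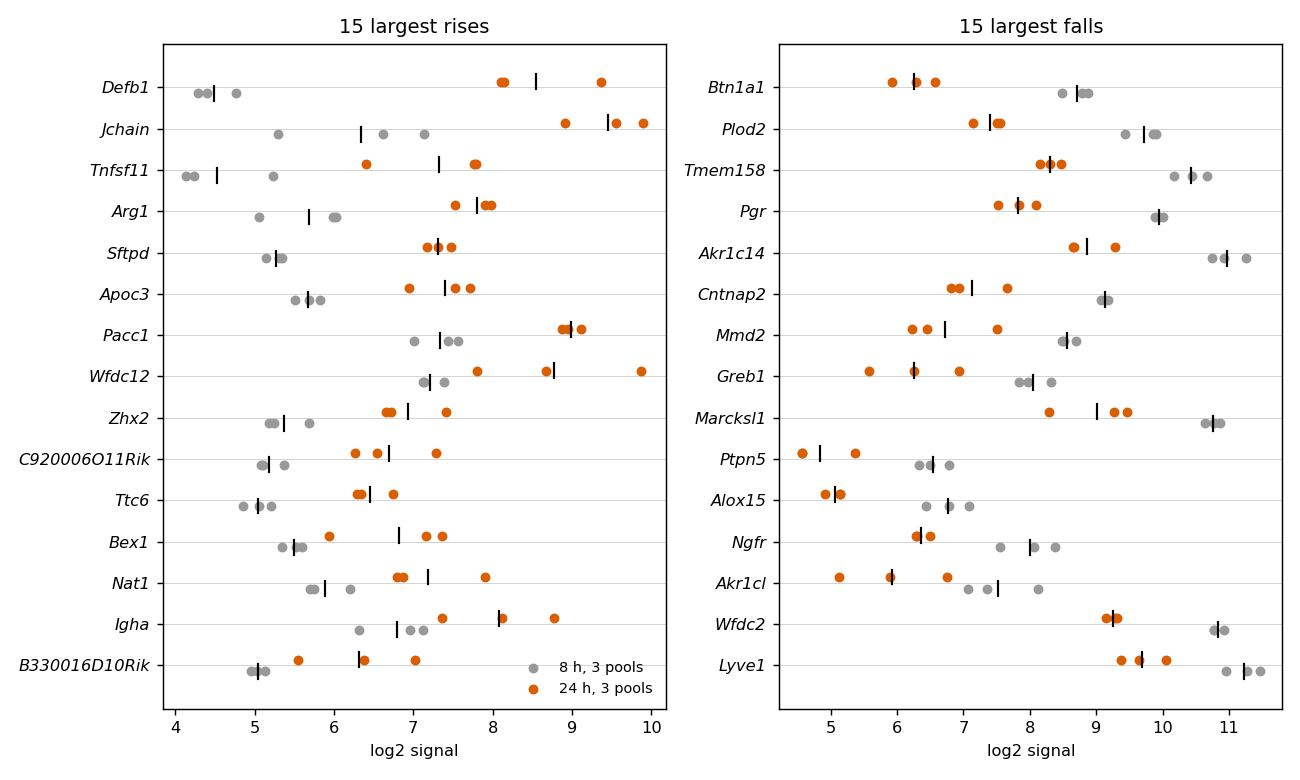
Log2 signal of the 15 genes with the largest rises (left) and the 15 with the largest falls (right) in each wild type pool (x axis, genes on the y axis); grey points are the 3 pools at 8 h, orange points the 3 pools at 24 h, and black bars the means. The 24 h points lie apart from the 8 h points in each row, by 16.7-fold for Defb1 and 5.44-fold in the other direction for Btn1a1, and several genes have a wide spread at 24 h, such as Wfdc12 from 7.8 to 9.87.

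Genes of mucosal defence were among the largest risers. Defb1, which encodes the antimicrobial peptide β-defensin 1, lay at 4.28, 4.4 and 4.77 at 8 h and at 8.15, 8.11 and 9.37 at 24 h. The 8 h pools were below the array medians and every 24 h pool was above them (16.7-fold as measured, from a level near background, SE 0.53, limma adjusted p = 0.0033, kept). A second Defb1 probe set gave a smaller rise of 1.85 on the log2 scale (adjusted p = 0.014).

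Sftpd, the collectin surfactant protein D, which binds microbial sugars, lay at 5.14, 5.35 and 5.31 at 8 h and at 7.31, 7.17 and 7.47 at 24 h. All 8 h pools were under the array medians, near background, and the rise as measured was 4.15-fold (SE 0.16, limma adjusted p = 0.0002, kept). Wfdc12, a small WAP-domain protease inhibitor, lay at 7.13, 7.39 and 7.12 and then at 9.87, 8.67 and 7.8, so that 24 h pool 1 was far above pool 3 (2.96-fold, adjusted p = 0.033). It was lost without any wild type 8 h pool or 24 h pool 2 (adjusted p up to 0.12).

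Wfdc2, another WAP-domain gene of epithelia, went the other way. It lay at 10.78, 10.78 and 10.92 at 8 h and at 9.15, 9.29 and 9.32 at 24 h, and its adjusted p of 4.6e-06 was the lowest of the genes named here (2.98-fold lower, SE 0.08, limma, kept). Of 17 tested mucosal defence genes 3 rose (17.6% against 1.45%) and 1 fell, with a median of 0.15. The list was chosen with earlier results of these data known, and Sftpd entered the test only through the wild type 24 h arrays. Other listed genes, such as Muc4 and Pigr, were too low to be tested. This count is therefore no independent evidence. Slpi, a secreted protease inhibitor, lay 1.08 higher with pools that did not overlap (8.61, 8.95 and 9.34 against 9.84, 9.63 and 10.7) but was not called (adjusted p = 0.084).

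Of 10 plasma cell markers 2 rose and 1 fell. Jchain, which encodes the chain that joins IgA and IgM units, lay at 6.62, 7.13 and 5.29 at 8 h and at 9.55, 8.91 and 9.9 at 24 h (8.65-fold, SE 0.52, limma adjusted p = 0.009, kept). Igha, the IgA heavy chain gene, lay at 6.96, 7.12 and 6.31 and then at 7.36, 8.78 and 8.12. That rise was 2.44-fold (adjusted p = 0.04) and was lost in 8 of the 12 fits without 1 pool (up to 0.11). The other tested probe sets of Igha were not called (adjusted p = 0.051 and 0.2). Ighm, the IgM heavy chain gene, lay at 9.73, 10.63 and 9.89 and then at 11.55, 9.92 and 11.88, with overlap, and none of its 6 tested probe sets was called (brightest 1.03, limma adjusted p = 0.21). Irf4, a transcription factor of plasma cells and other immune cells, fell 1.8-fold (lost without wild type 8 h pool 1, adjusted p = 0.075). The median of the list was 0.74.

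Lymphocyte markers moved with Jchain in some pools and not in others. For both, 8 h pool 3 was the lowest and 24 h pool 3 the highest, but in 24 h pool 2 Jchain was above every 8 h pool while the lymphocyte mean was -0.58. None of the 19 lymphocyte markers was called in limma (0 at an unadjusted p under 0.05), 19 of 19 lay above 0 and their median was 0.81. Ms4a1, the B cell gene for CD20, lay at 8.66, 8.32 and 5.54 at 8 h and at 9.69, 7.9 and 9.98 at 24 h, with overlap (adjusted p = 0.49). The part of lymphocyte content in the rises of Jchain and Igha was not tested. Glycam1, which is listed with milk genes and is also made by lymph node vessels, had the same pattern (10.8, 10.56 and 7.14, then 11.31, 8.95 and 11.66, adjusted p = 0.78).

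Of 16 macrophage markers 2 fell. Lyve1, a hyaluronan receptor of lymphatic vessels and of some tissue macrophages, lay at 11.27, 10.95 and 11.46 at 8 h and at 9.38, 9.65 and 10.05 at 24 h (2.89-fold lower, SE 0.3, limma adjusted p = 0.017). Its call was lost without wild type 8 h pool 1 (0.075) or 3 (0.051). A dimmer probe set of Lyve1 fell too (-1.69, limma adjusted p = 0.0046), and that call was kept. Msr1, a scavenger receptor, fell 1.76-fold and was lost without 8 h pool 1 (0.068). The other 14 were not called, among them the mannose receptor gene Mrc1 (1.63-fold lower, adjusted p = 0.051) and the defining markers Adgre1 and Csf1r, at 0 and -0.08. The median of the 16 was -0.49, and 2 of 16 lower (12.5%) compares with 3.83% of all genes.

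Of fibroblast markers 3 of 13 fell (23.1% against 3.83% of all genes), Cd34 (2.18-fold, kept), Pi16 (1.95-fold) and Dpt (1.4-fold). Pdgfra lay 0.36 lower without a call (limma adjusted p = 0.21). The calls of Pi16 and Dpt were each lost without 5 wild type pools (up to 0.11 and 0.077). Cd34 also marks blood vessels and Pi16 a fibroblast subset of vessel surroundings. The chemokine Cxcl15 fell 2.68-fold, from 8.19, 8.1 and 8.33 to 6.69, 6.39 and 7.29, and Lif, the leukemia inhibitory factor gene, fell 1.98-fold, from 6.68, 6.55 and 6.63 to 5.56, 5.53 and 5.81. Both calls were kept. Il18 rose 1.39-fold and was lost without 3 wild type pools (up to 0.097), and the other 17 tested chemokine and cytokine genes were not called.

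Epithelial genes showed 4 rises among 20 markers (1.45% of all genes rose), of the claudins Cldn3 (1.42-fold) and Cldn4 (1.33-fold), the keratin Krt8 (1.39-fold) and the epithelial adaptor subunit Ap1m2 (1.33-fold). Krt8 lay at 10.51, 10.5 and 10.51 at 8 h and at 11.13, 10.67 and 11.15 at 24 h. Each of these 4 calls was lost without 5 or 8 pools (adjusted p up to 0.12 to 0.17), and without wild type 8 h pool 1 no member rose. Prom2, a membrane protein of epithelial protrusions, fell 1.98-fold and was lost without 8 h pool 1 or 2 (0.058 and 0.052). Of the 20, 17 lay above 0 with a median of 0.29, and in null glands 1 lay above 0 with a median of -0.5. Their mean in 24 h pool 2 was -0.18, below the 8 h pools, beside 0.16 and 0.25 in the other 24 h pools.

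Of 12 tested milk genes 3 fell, against 3.83% of all genes, and the median was -0.09. Btn1a1, which encodes butyrophilin, a membrane protein needed to release milk fat droplets, lay at 8.78, 8.48 and 8.87 at 8 h and at 6.29, 5.92 and 6.58 at 24 h. This was the largest fall of any called gene (5.44-fold, SE 0.29, limma adjusted p = 0.0017, kept). The κ-casein gene Csn3 fell 2.4-fold, from 10.57, 10.67 and 11.03 to 9.42, 9.19 and 9.87, and Lalba, α-lactalbumin of lactose synthesis, fell 1.95-fold to between 5.64 and 5.87, about the level of the array medians. Csn3 was lost without wild type 8 h pool 1 (0.053) or 24 h pool 2 (0.052), and Lalba in 7 fits (up to 0.11). The uncalled members included Mfge8 and Muc1, at -0.11 and -0.12.

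Prolactin signalling through STAT5 shared this direction, with 4 of 11 members lower (36.4% against 3.83% of all genes), none higher and a median of -0.28. Stat5a lay at 10.36, 10.1 and 10.02 at 8 h and at 9.24, 9.41 and 9.29 at 24 h (1.8-fold lower, SE 0.1, limma adjusted p = 0.0013). Socs2, a STAT5 target that dampens cytokine signals, fell 1.9-fold. Both calls were kept. Stat5b and the kinase gene Akt1 fell 1.31-fold and 1.3-fold and were lost in 7 and 5 of the 12 fits (up to 0.14 and 0.11). In null glands 4 of the 11 also fell, and the interaction was called for none of the 11.

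Enzymes that modify collagen fell, 4 of 14 (28.6% against 3.83%) with a median of -0.23. Plod2, a lysyl hydroxylase that sets the cross-links of collagen, lay at 9.9, 9.43 and 9.85 at 8 h and at 7.55, 7.15 and 7.51 at 24 h (5.01-fold, SE 0.29, limma adjusted p = 0.0022). Its relative Plod1 fell 1.74-fold. Tgm2, a transglutaminase that joins matrix proteins, lay at 12.52, 12.5 and 12.73 and then at 11.71, 11.8 and 11.7 (1.8-fold, SE 0.08, adjusted p = 0.00042). These 3 calls were kept. Serpinh1, the collagen chaperone, fell 1.39-fold and was lost without 5 wild type pools (up to 0.11). Of 31 collagens and other matrix genes 1 fell (3.23%, near the 3.83% of all genes), and their median was -0.18. The 1 called was Eln, elastin (1.69-fold, lost without 5 wild type pools, up to 0.11). Col1a1 lay 0.54 lower (limma adjusted p = 0.34). None of 23 hypoxia and glycolysis genes was called in limma (4 at an unadjusted p under 0.05).

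In the contractile and oxytocin list, the receptor fell while a muscle actin rose. Oxtr, the oxytocin receptor of myoepithelial cells, lay at 11.18, 11.13 and 10.92 at 8 h and at 9.84, 9.33 and 9.84 at 24 h (2.66-fold lower, SE 0.15, limma adjusted p = 0.0011, kept). Actg2, a smooth muscle actin, rose 1.64-fold and was lost without 4 wild type pools (up to 0.091). The myoepithelial actin gene Acta2 lay at 11.51, 11.6 and 12.01 and then at 11.73, 12.06 and 12.25, with overlap (adjusted p = 0.29). Of 13 tested members 11 lay above 0 and the median was 0.27. The basal keratin genes Krt14 and Krt5 lay 0.78 and 0.23 higher without a call (adjusted p = 0.34 and 0.66).

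**Figure D3:**
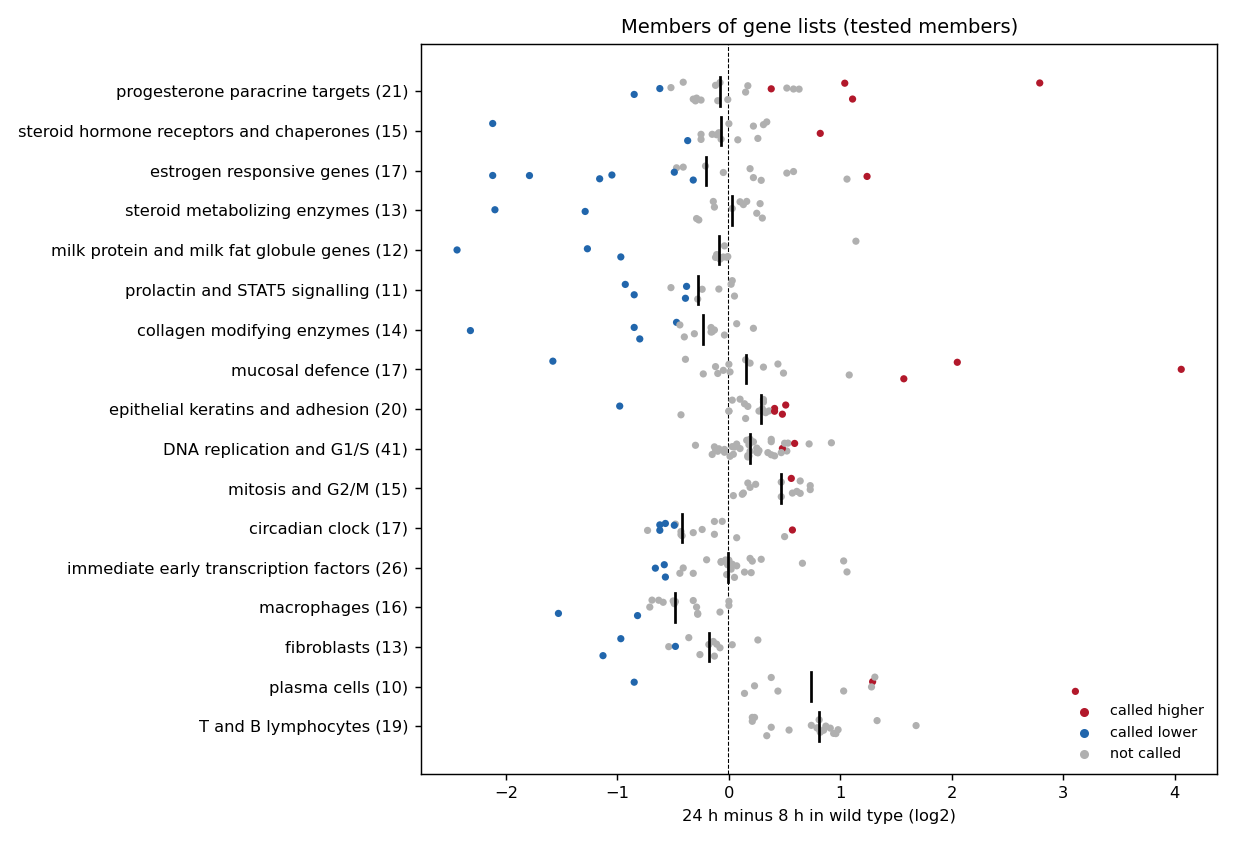
Difference between 24 h and 8 h in wild type (x axis, log2) for the tested members of 17 gene lists (rows, with the number of members); red points were called higher, blue points lower and grey points not called, black bars are list medians and the dashed line is the median of all genes. Mitosis genes all lie above 0 with a median of 0.47 and 1 call, lymphocyte markers lie above 0 with no call, and the falls of Pgr, Btn1a1 and Plod2 stand far below the medians of their lists.

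Cell cycle genes leaned upward with few calls. Of 30 listed mitosis genes 15 were tested, and others, such as Plk1, Aurka and Bub1, were too low to be tested. All 15 tested lay above 0 with a median of 0.47. Of these 1 was called, Anln, a scaffold protein of the cleavage furrow (1.47-fold, lost in 7 of the 12 fits, up to 0.16). Mki67, the proliferation marker, lay at 7.17, 6.93 and 6.95 at 8 h and at 8.18, 6.98 and 8.08 at 24 h. Pool 2 at 24 h was thus among the 8 h pools, and the difference was not called (adjusted p = 0.28). Of 41 DNA replication genes 32 lay above 0, with a median of 0.19, and 2 rose (4.88% against 1.45%): the helicase subunit gene Mcm7 (1.51-fold) and the DNA ligase gene Lig1 (1.39-fold). Mcm7 was lost without wild type 8 h pool 1 or 2 or 24 h pool 3 (up to 0.071) and Lig1 in 9 fits (up to 0.13). Mcm6 lay 1.89-fold higher, from 6.95, 6.99 and 7.12 to 8.02, 7.65 and 8.14, without a call (adjusted p = 0.062). The medians of the mitosis and replication lists in null glands were 0.38 and 0.11. Lymphocyte markers moved with the mitosis mean at 24 h: it was 0.26, -0.02 and 0.39 in the wild type pools and -0.23, 0.08 and 0.42 in the null pools, where the lymphocyte mean was 0.72, -0.58 and 1, and -1.22, 0.89 and 1.81. The 8 h pools of wild type did not show this. Their mitosis mean was -0.23, -0.26 and -0.14, beside lymphocyte means of 0.21, 0.04 and -1.39. In null glands at 8 h the mitosis mean was -0.53, 0.06 and -0.15, beside -1.43, -0.26 and -0.04. The part of lymphocyte content in the cell cycle values was not tested.

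Genes of the circadian clock, whose levels cycle with the hour of day, moved too. Of 17 tested, 4 fell, the output factors Hlf (1.54-fold), Tef (1.41-fold) and Nfil3 (1.49-fold) and the cell cycle kinase gene Wee1 (1.54-fold), which is 23.5% against 3.83%. Nr1d1, the repressor REV-ERBα, rose from 7.32, 7.52 and 7.25 to 7.78, 8.08 and 7.93 (1.48-fold, SE 0.11, limma adjusted p = 0.017). Without wild type 8 h pool 1 none of these 5 was called (0.078 to 0.14), and most without other wild type pools as well. Per2 lay 1.66-fold lower and the activator Arntl 1.41-fold higher without a call (adjusted p = 0.073 and 0.21). The list median was -0.42 in wild type and -0.06 in null glands, and the interaction was called for none of the 17. The part of the hour of collection in these values was not tested.

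Immediate early transcription factors had 3 falls among 26 (11.5% against 3.83% of all genes). They were Jund (1.5-fold), Fosl2 (1.58-fold) and Nr4a2 (1.49-fold), each lost without wild type 8 h pool 1 (0.073 to 0.17). In null glands 8 of the 26 fell, as did 3.83% of all genes there. Of 18 genes that glucocorticoid and progesterone receptors share as targets, none was called in limma (5 at an unadjusted p under 0.05). Tsc22d3, the leucine zipper GILZ, lay 1.73-fold lower (adjusted p = 0.062) and the mean of Fkbp5 was 10.09 at both times. Gpam, the first enzyme of triglyceride synthesis, fell 1.51-fold and was kept, and the desaturase gene Fads1 fell 1.41-fold (lost without 3 wild type pools, up to 0.073). No member was called in limma in cholesterol synthesis (18 genes), the respiratory chain (28) or the interferon response (23), where 3, 1 and 0 had an unadjusted p under 0.05.

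Other large risers stood outside the groups above. Arg1, arginase 1, which splits arginine into ornithine and urea, lay at 5.05, 6.02 and 5.99 at 8 h and at 7.91, 7.52 and 7.98 at 24 h (4.33-fold, SE 0.35, limma adjusted p = 0.0085, kept). It was the only riser of 16 arginine and polyamine genes. Pacc1, a proton-activated chloride channel, lay at 7.01, 7.57 and 7.44 and then at 8.88, 9.12 and 8.95 (3.12-fold, SE 0.14, adjusted p = 0.00027, kept), but a dimmer probe set lay only 0.17 higher (adjusted p = 0.57).

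Zhx2, a transcriptional repressor (2.95-fold), and Ttc6 (2.67-fold) also rose and were kept, with 24 h pools from 6.66 to 7.41 and from 6.29 to 6.75, above their 8 h pools. Apoc3, an apolipoprotein gene (3.3-fold), was lost without wild type 8 h pool 1 (0.068) or 24 h pool 2 (0.05 after rounding), and Nat1, an arylamine acetyltransferase (2.47-fold), without 8 h pool 1 (0.09) or 3 (0.055). Bex1 (2.51-fold), C920006O11Rik (2.85-fold) and B330016D10Rik (2.43-fold) were each lost in 4 to 7 of the 12 fits (adjusted p up to 0.11). All 8 h pools of Zhx2, Ttc6, Apoc3, Bex1, C920006O11Rik and B330016D10Rik were under the array medians, near background. The size of the folds of these genes is uncertain.

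Among the 15 largest falls, Tmem158 lay at 10.67, 10.17 and 10.45 at 8 h and at 8.31, 8.15 and 8.47 at 24 h (4.35-fold, SE 0.17, limma adjusted p = 0.00024, kept), with a dimmer probe set only 0.33 lower (-0.33, adjusted p = 0.12). Alox15, a lipoxygenase, fell 3.26-fold, from 6.79, 6.44 and 7.09 to 5.15, 5.14 and 4.92. Ptpn5, a tyrosine phosphatase (3.26-fold), Ngfr, the p75 neurotrophin receptor (3.1-fold), Mmd2 (3.57-fold) and Marcksl1, an actin regulator (3.36-fold), fell as well. These 6 calls were kept. For Alox15 and Ptpn5 all 24 h pools were under the array medians, near background, so the size of these falls is uncertain. Cntnap2, a neurexin-family cell adhesion gene, lay at 9.08, 9.18 and 9.13 and then at 6.82, 6.93 and 7.66 (3.98-fold) and was lost without 5 wild type pools (up to 0.098). A dimmer probe set fell as well (-2.02, limma adjusted p = 0.0013), and its call was kept. It was above the array medians in the wild type 8 h pools alone. Its interaction was called (-2.23, limma adjusted p = 0.023), and that of the brighter probe set was not (-1.51, 0.81).

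**Figure D4:**
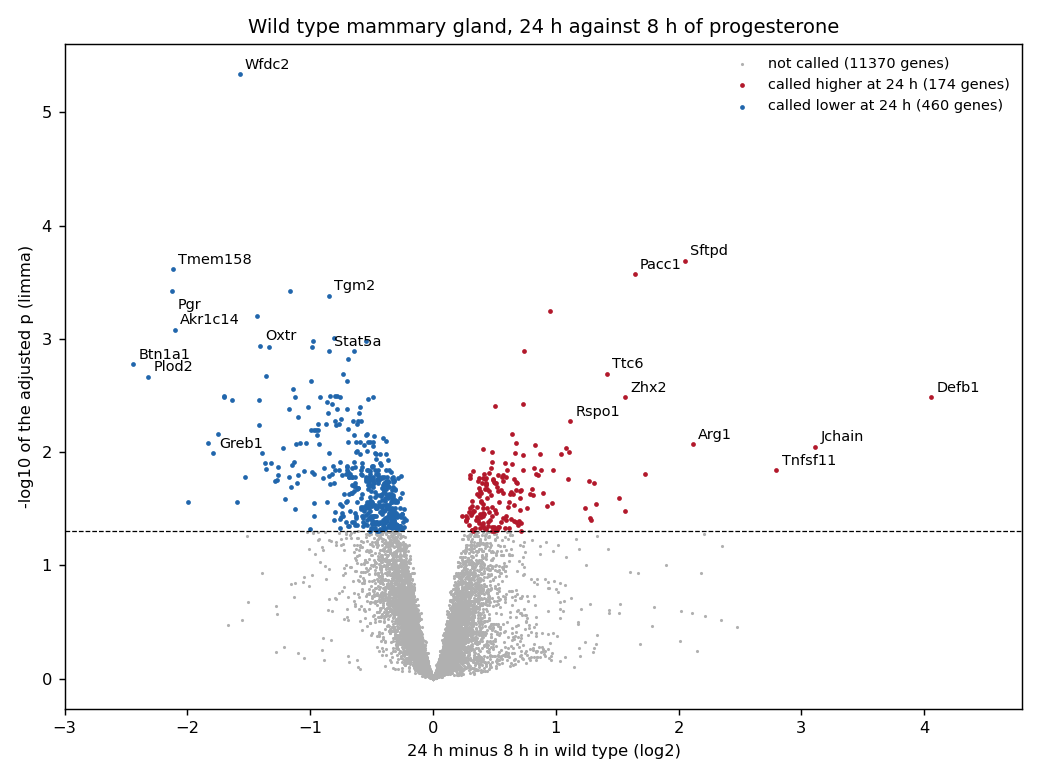
Each point is 1 of 12004 genes, with the difference between 24 h and 8 h in wild type on the x axis (log2) and -log10 of the limma adjusted p on the y axis; the dashed line is the threshold of 0.05, red points are the 174 genes called higher and blue points the 460 called lower. Wfdc2 has the lowest adjusted p (4.6e-06), Defb1 the largest rise (4.06) and Btn1a1 the largest fall (-2.44), and many differences above 1 on the log2 scale lie under the line.

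The same step in time was set beside null glands, whose arrays are separate but share the estimate of spread. In null glands 88 genes rose (0.733%) and 460 fell (3.83%). Of the genes called in wild type, 30 rose in both genotypes, which is 17.2% of the wild type and 34.1% of the null risers, and 202 fell in both, 43.9% of either set. The falls of Oxtr, Greb1, Stat5a, Tgm2, Wfdc2, Akr1c14, Plod2 and Ngfr were called in null glands as well, and so were the rises of Pacc1, Tes3-ps and the chemokine Cxcl17. The interaction test asks whether the change differs between genotypes. It was passed by 6 of 144 genes that rose in wild type and were not called higher in null glands. Of 258 genes that fell in wild type and were not called lower there, 2 passed it. These sets include 4 genes called in the opposite direction in null glands. The interaction was called for 16 genes in all (0.133% of 12004), and 5 of those calls were kept in the 12 fits without 1 pool. With the replicate number as a block within genotype, 9 of the 16 were called. For Tnfsf11 (interaction adjusted p = 0.63), Jchain (0.44) and Rspo1 (0.23), a difference between genotypes in the change over time was not called.

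Of the genes called both over time and for the interaction, Arg1, Cldn4 and Sox4 rose in wild type and fell in null glands, and Tmprss2, a membrane serine protease gene, fell in wild type and rose in null glands. For Sox4 this rests on its brightest probe set (0.46 in wild type). Its other tested probe sets lay at -0.08, 0.05 and -0.01 there, and none was called over time in either genotype or for the interaction. Arg1 fell in null glands from 7.92, 8.17 and 9.23 to 7.29, 6.63 and 6.63 (interaction 3.7, SE 0.49, limma adjusted p = 0.014, lost without null 24 h pool 3 at 0.05 after rounding, and 0.053 with the replicate block). Tmprss2 lay at 9.24, 9.37 and 9.84 and then at 8.38, 8.66 and 8.82 in wild type, and at 8.9, 8.74 and 8.67 and then at 9.64, 10.31 and 9.75 in null glands. Its interaction was -2 (adjusted p = 0.016, lost without null 8 h pool 2 or 3). Its wild type fall was lost without 5 wild type pools (up to 0.079), and the wild type rises of Cldn4 and Sox4 in 8 fits each (up to 0.17 and 0.16). With the replicate block the interactions of Cldn4 and Sox4 were not called (limma adjusted p = 0.09 and 0.1).

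Defb1 and Btn1a1, the largest riser and faller, lay at 5.91, 6.63 and 4.05, then at 4.59, 4.84 and 4.62, and at 7.49, 6.79 and 6.75, then at 7.75, 6.8 and 6.64 in null glands, with overlap between the times for both. Their interaction calls (adjusted p = 0.037 and 0.048) were each lost in 10 of the 12 fits (up to 0.12 and 0.16). Sftpd lay at 4.76, 5.03 and 4.78 and then at 5.53, 5.04 and 4.94 in null glands, under the wild type 24 h pools. Its interaction of 1.73 (adjusted p = 0.014) was lost without wild type 8 h pool 1 (0.063) and with the replicate block (0.055). Id4 lay 0.63 lower at 24 h in null glands (adjusted p = 0.068, and 0.027 with the block), and its interaction of 1.67 (adjusted p = 0.034) was lost in 10 fits (up to 0.12).

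**Figure D5:**
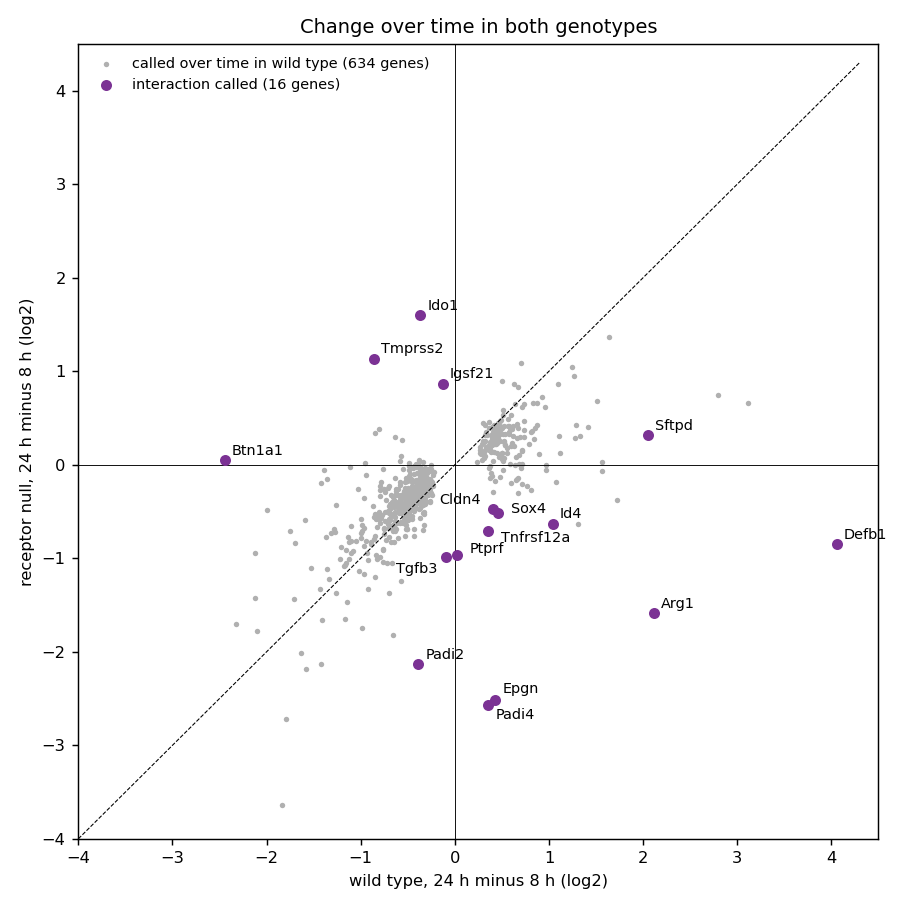
Change from 8 h to 24 h in wild type (x axis) and in receptor null glands (y axis), both in log2, for the 634 genes called over time in wild type (grey) and the 16 genes with a called interaction (purple, named); the dashed line marks equal change. Defb1, Arg1 and Sftpd lie to the right of the line, Btn1a1 and Tmprss2 to the left, and Epgn, Padi4 and Padi2 lie low, with null changes of -2.52, -2.56 and -2.14 and no call in wild type.

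Where a called gene had further tested probe sets, most leaned the same way. Of 515 such probe sets for 308 called genes, 422 had the same sign, 129 were called in the same direction, 93 had the opposite sign and none was called in the opposite direction in limma. Besides the genes above, Il4ra, the interleukin 4 receptor chain, differed most between probe sets, at -1.36 and -0.26.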

How the data were processed

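RNA of 12 pools, 3 per group, was measured on Affymetrix arrays. The authors deposited 1 table of 45101 probe sets whose values were taken as log2 from their range; the labels do not give scale, base, summarization or normalization, and the submitters' processing notes name MAS5 without a version. Array medians lay between 5.84 and 5.91. Precision is set by how few arrays there are.

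Groups came from the labels. Leaving out controls, 45037 probe sets remained, and 34945 had 1 gene symbol in the platform annotation, 932 several and 9160 none; 0 symbols changed through the RefSeq table of GRCm38.p6. A probe set was tested if it passed the median of its array in 3 or more of the 12 arrays (23709, for 12004 genes). A gene was represented by its tested probe set with the highest mean. limma 3.58.1 in R 4.3.3 (lmFit, eBayes with a trended prior) fitted 4 group means over 12 arrays, with 8 residual degrees of freedom, and Benjamini-Hochberg adjustment ran over 23709 probe sets at 0.05. SE is the moderated standard error in log2. Nothing beyond the spread among these pools enters the p-values.

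The members and gene lists were chosen with earlier results of these data known, and lists are described by counts and medians only. Their counts are thus no independent evidence. Named genes were Pgr, the 15 largest rises and falls among called genes whose pools did not overlap and whose higher mean passed the mean array median, up to 6 called and 3 uncalled members of each list with its defining member, up to 8 genes a direction called in the interaction or in both genotypes, and 5 genes whose probe sets differed most. Ctsd, Ncoa1 and Ncoa2 stand outside this rule and were chosen after their values were seen.

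Same-numbered wild type pools correlated in their deviations at 0.453, -0.013 and 0.023, so the numbers were not taken to pair them. Null pools correlated at 0.517, 0.264 and 0.384, which meets the threshold for pairing, from the data and not the labels. The null and interaction results still come from the fit without a block, and the blocked value stands beside an interaction call that it ends. On simulated data with 200 changed probe sets among 23709, the wild type contrast recovered 90% at 2-fold and 70% at 1.5-fold. The design named protein sequences; none were used here. Alternatives covered the filter, arrays in the fit, variance prior, quantile normalization, centring, a floor, array weights, omission of each pool, a fold threshold, 1 probe set for each gene and a replicate block. Figures were drawn with matplotlib 3.10.9.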

Additional observations from a re-analysis of the deposited data

Results flagged for a closer look

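The change over time differed between wild type and null glands, by the limma interaction test at an adjusted p below 0.05, for 16 genes. The interaction (wild type change minus null change, log2) was positive for Defb1 (4.91), Arg1 (3.7), Epgn (2.95), Padi4 (2.92), Padi2 (1.74), Sftpd (1.73), Id4 (1.67), Tnfrsf12a (1.06), Ptprf (0.99), Sox4 (0.98), Tgfb3 (0.9) and Cldn4 (0.89). It was negative for Igsf21 (-1), Ido1 (-1.96), Tmprss2 (-2) and Btn1a1 (-2.49).

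For 8 of the 16 the wild type change was not itself called. Epgn, an EGF family ligand gene, lay at 4.87 ± 0.19 and 5.3 ± 0.07 (SD, n = 3) in wild type and fell in null glands from 6.91, 7.3 and 7.74 to 4.79, 4.68 and 4.93. Padi4 and Padi2, which convert arginine in proteins to citrulline, lay at 4.8 ± 0.19 and 6.71 ± 0.03 at 8 h in wild type and differed by 0.35 and -0.39 there without a call, but fell by 2.56 and 2.14 in null glands. Ido1, which degrades tryptophan, rose by 1.6 in null glands and lay 0.37 lower in wild type (adjusted p = 0.26). Tgfb3, Ptprf and Tnfrsf12a fell in null glands by 0.99, 0.96 and 0.71, and Igsf21 rose there by 0.87. The calls of Epgn, Padi4, Padi2, Ido1 and Tnfrsf12a passed in all 12 fits that left out 1 pool. Tgfb3 was lost only without wild type 8 h pool 1, Ptprf in 11 of the fits and Igsf21 in 10. With the replicate number as a block, the calls of Arg1, Sftpd, Sox4, Cldn4, Ptprf, Igsf21 and Ido1 were lost (limma adjusted p = 0.053, 0.055, 0.1, 0.09, 0.086, 0.067 and 0.058).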

How the results depend on the processing

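No result reversed under any setting. For wild type probe sets, 363 higher and 875 lower became 134 and 366 with only wild type arrays in the fit, 172 and 477 with 1 probe set per gene, and 177 and 325 with a fold over 1.5; array weights gave 603 higher. Leaving out 1 pool gave 65 to 402 higher and 174 to 948 lower, the lowest without wild type 8 h pool 1. For null glands, 193 higher and 851 lower became 60 and 288, 89 and 483, and 74 and 369 under the same settings, 1770 and 4005 with array weights, and 560 lower with quantile normalization; leaving out 1 pool gave 36 to 275 and 196 to 964. For the interaction, 27 positive and 7 negative became 17 and 4 with the filter on 6 arrays, 126 and 43 with array weights, and 8 and 2 with 1 probe set per gene; leaving out 1 pool gave 10 to 41 and 2 to 8. The cause of these shifts was not tested, beyond fewer arrays or probe sets in the fits that drop them.

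A replicate block within genotype, which pairs same-numbered pools, gave 522 higher and 1009 lower probe sets in wild type, 259 and 1087 in null glands, and 29 and 6 for the interaction. Of the genes named by rule, 65 of 69 null calls and 9 of 16 interaction calls passed with it, and 15 and 2 others were called only with it. It was not taken as the design in wild type, where only pool 1 correlated with its own number best among all pools.

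The share of wild type calls that were higher was 29.3%, 38.1% after quantile normalization and 21.0% after centring, with medians of -0.017, 0 and -0.044 over all probe sets. Of 102 called genes named here, none changed sign under any setting; 59 kept their call with only wild type arrays, 33 without wild type 8 h pool 1, 84 without the filter and at least 95 under another prior, scaling, floor, weights or the block. Probe sets near the array medians are measured close to the background of the arrays, and changes there are less certain.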
